A study of Mus musculus with 16 samples.

Results

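The 100 gene identifiers described here had the largest differences between Mettl14 CKO and Control mouse embryonic stem cells that held at each of 3 labelling times. They were chosen from newly made RNA labelled for 10, 20 and 60 min. The measure was CPM, a library's count on an identifier divided by its total mouse count, times 1000000. Of 54446 mouse identifiers, 7287 had a mean of at least 20 CPM over the 12 libraries of these times. For each of them the log2 ratio of mean CKO CPM + 1 over mean Control CPM + 1 was taken at each time. The smallest of the 3 ratios ranked the identifiers, and the 100 highest are the members. The libraries of 30 min had no part in the choice, so they are the held-out test of it.

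The CKO groups are Mettl14 conditional knockout cells and the Control groups are the matching Control cells, both of strain C57BL/6. All 16 libraries came from cells grown with serum, LIF, the GSK3 inhibitor CHIR99021 and the MEK inhibitor PD0325901, conditions that hold mouse stem cells in an undifferentiated state. After 48 h of growth on 6-cm plates, 5-ethynyl uridine (EU), a uridine analogue that cells build into RNA, was added at 0.5 mM for 10, 20, 30 or 60 min. Each genotype and time had 2 libraries. How and when Mettl14 was deleted, and whether a genotype is 1 clone or line, is not given in the sources used here. Whether the 2 libraries of a group stem from separate cultures is not stated. The p-values therefore reflect the spread between the libraries alone, which may be technical.

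METTL14 pairs with METTL3 in the enzyme complex that places N6-methyladenosine on messenger RNA. The mark is known for shortening the lifetime of many transcripts, among them transcripts of stem cell regulators. The study's title presents METTL14 as a regulator of chromatin that acts apart from this mark. RNA captured after a short EU pulse lies close to transcription, and a longer pulse adds RNA that has been processed and partly turned over.

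The deposited files give gene identifiers without symbols, and 0 of the identifiers could be matched to the RefSeq gene table used here. No member is therefore given a name, a role or a promoter sequence. The level of Mettl14 itself, the gene lists and the markers of stem cells, feeder fibroblasts and other cell types were not analysed here. The genotype labels are accordingly unchecked. In bulk samples such as these, fewer cells of a type and less RNA per cell cannot be told apart. Members are called by their rank, and 4 are given by identifier.

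The libraries held 5109162 to 28502750 mouse counts. Both CKO 30 min libraries stood apart from the other 14. They had the fewest counts, 5188643 and 5109162, but detected 30583 and 31826 identifiers, against 21173 to 26857 in the others. The 7287 identifiers that met the CPM minimum took 82.1% and 82.5% of their counts, against 94.0% to 94.8% elsewhere. Every 30 min comparison below rests on them, and the part that their composition plays in the members' values was not tested. The least counted member of any library had 45 counts, and the median member had 298.5 to 1552 counts across libraries.

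Together the members held a larger share of the CKO libraries at every time. At 10 min they took 1.72% and 1.88% of the counts of the CKO libraries, against 0.878% and 0.871% of the Control libraries. At 20 min the share was 1.40% and 1.39% in CKO, against 0.838% and 0.824% in Control. At 60 min it was 1.56% and 1.41% in CKO, against 0.825% and 0.841% in Control. These values only describe the choice, since the rule used them. In the held-out 30 min libraries the members took 1.08% and 1.11% of the CKO counts (95% Wilson intervals 1.07% to 1.09% and 1.10% to 1.12%). In the Control 30 min libraries they took 0.764% and 0.750% (95% Wilson intervals 0.759% to 0.768% and 0.746% to 0.754%). The intervals cover counting error only. The CKO share at 30 min was the lowest of the 4 times and still did not overlap the Control share at any time.

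**Figure D1:**
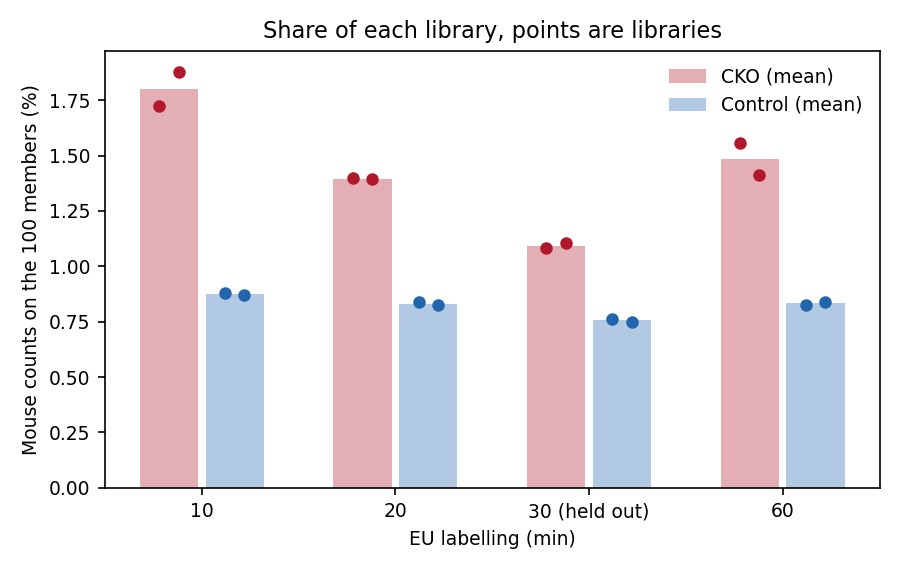
Share of all mouse counts that fell on the 100 members (y axis, percent) by EU labelling time (x axis, min), with CKO in red to the left of Control in blue. Bars are group means and points are libraries (n = 2 a group). The CKO libraries lie between 1.08% and 1.88% and the Control libraries between 0.750% and 0.878%.

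The members covered a wide range of abundance. Their mean over the 12 libraries ran from 20.5 to 1914 CPM with a median of 50.4 CPM, against a median of 59.7 CPM over all 7287. In Control cells alone the median member had 36.7 CPM. Below 50 CPM lay 50 members, between 50 and 100 CPM lay 27, and 23 had 100 CPM or more. The 3 most abundant members were ranked 32, 68 and 71.

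ENSMUSG00000029816.10, ranked first, had the largest difference by the rule and kept it in every library. At 10 min it had 133 and 111 CPM in CKO, against 38.1 and 28.8 CPM in Control. At 20 min it had 99.2 and 104 CPM in CKO, against 25.1 and 25.5 CPM in Control. At 60 min it had 78.5 and 74.2 CPM in CKO, against 21.9 and 24.9 CPM in Control. The log2 ratios were 1.84, 1.96 and 1.66, so the CKO level was at least 3.17-fold the Control level at each time on the CPM + 1 scale. In the held-out libraries it had 102 and 92.6 CPM in CKO, against 30.3 and 30.2 CPM in Control, a log2 ratio of 1.65 on the CPM + 1 scale. In the edgeR fit, which scales the libraries otherwise, it rose there by 1.40 on the log2 scale (SE 0.145, 2.64-fold, edgeR adjusted p = 3.15e-08). The genotypes did not overlap at any of the 4 times.

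ENSMUSG00000005892.4, ranked 3, differed most at 10 min and less with longer labelling. It had 241 and 238 CPM in CKO at 10 min, against 59.5 and 69.5 CPM in Control. At 20 min it had 152 and 140 CPM in CKO, against 58.5 and 59.2 CPM in Control. At 60 min it had 128 and 129 CPM in CKO, against 61.4 and 63.6 CPM in Control. Its Control level stayed between 48.9 and 69.5 CPM over all times while its CKO level was highest after the shortest pulse. At 30 min it had 122 and 124 CPM in CKO, against 48.9 and 54.6 CPM in Control, and it rose by 0.97 (log2, SE 0.111, edgeR adjusted p = 1.7e-07).

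The member ranked 2 did not pass the held-out test. At 10, 20 and 60 min it had 49.7 to 61.0 CPM in the 6 CKO libraries, against 18.8 to 29.3 CPM in the 6 Control libraries. At 30 min its CKO libraries had 48.2 and 22.1 CPM, against 32.3 and 29.9 CPM in Control. The CKO libraries lay on either side of the Control libraries, and the log2 fold change was -0.10 (SE 0.228, edgeR adjusted p = 0.722).

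**Figure D2:**
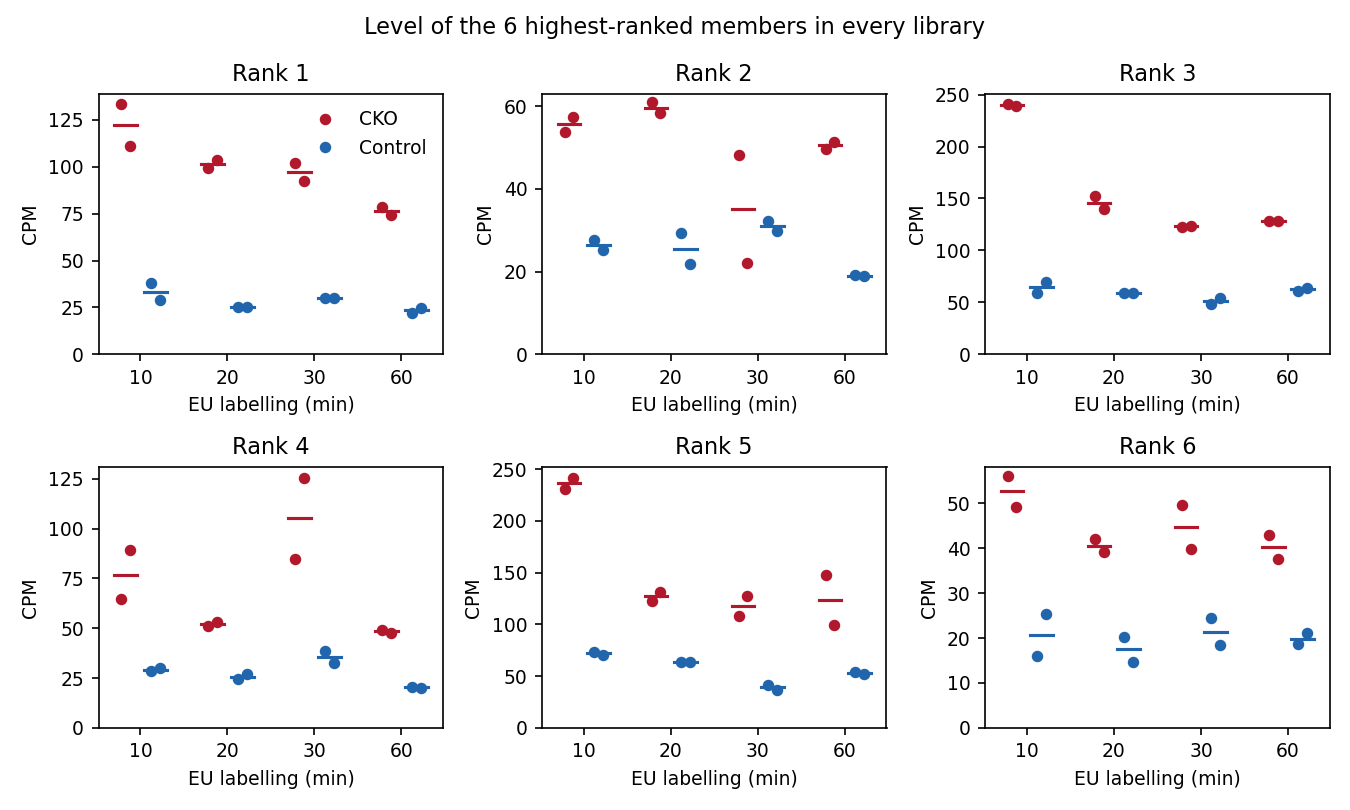
Level (y axis, CPM, a separate scale in each panel) of the 6 members of highest rank by EU labelling time (x axis, min), with CKO in red to the left of Control in blue. Points are libraries (n = 2 a group) and lines are group means. In each panel the CKO points lie above the Control points at every time, except at 30 min for rank 2.

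The size of the difference changed with labelling time, and for most members it was largest after the shortest pulse. At 10 min the median log2 ratio of the members was 1.00 (2.00-fold, quartiles 0.78 and 1.24). At 20 min it was 0.77 (1.70-fold), and at 60 min 0.75 (1.68-fold). The largest of the 3 ratios fell at 10 min for 59 members, at 20 min for 21 and at 60 min for 20. A ratio of at least 2-fold was seen for 50 members at 10 min, 22 at 20 min and 17 at 60 min. Among the 7287 identifiers the shares were 2.33%, 0.371% and 0.535%, also highest at 10 min, and their quartiles were widest there, at -0.35 and 0.25. Ratios were thus spread most widely at 10 min over all identifiers too. The member ranked 45 had the highest ratio of any at 10 min, 2.03, but only 0.67 at 20 min and 0.69 at 60 min. The member ranked 8 had the opposite order, with ratios of 0.97 at 10 min, 1.47 at 20 min and 1.56 at 60 min.

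The replicates of the genotypes were separate for nearly all members at these times. Both CKO libraries lay above both Control libraries for 99 members at 10 min, where 27.6% of the 7287 identifiers did. All 100 did so at 20 min, against 32.0% of the 7287, and at 60 min, against 27.7%. A fit of the 12 libraries together (edgeR, EU time plus genotype) called all 100 higher in CKO, against 13.1% of the 7287. The rule used this contrast, so these counts follow from the choice.

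The place of the cut was narrow. The smallest ratios of the members ranked 98, 99 and 100 were 0.499, 0.497 and 0.497, and those of the first 3 identifiers outside were 0.496, 0.493 and 0.493. When each of the 12 libraries was left out of the rule in turn, 85 to 95 of the members were chosen again. A minimum of 10 CPM kept 68 of them and a minimum of 50 CPM kept 50, since 50 of the members have less.

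At 30 min, in libraries that the rule had not seen, 51 of the 100 members were called higher in CKO, 7 were called lower and 42 were not called (edgeR quasi-likelihood test across 27488 identifiers, Benjamini-Hochberg adjusted p below 0.05). Of the 7287 identifiers that met the CPM minimum, 3.92% were called higher and 60.8% lower. Of all 27488 tested, 29.4% were called higher, or 8076, and 5263 were called lower. Scaling by library totals turned this split to 9546 higher and 3293 lower, and DESeq2's size factors in edgeR to 9419 and 3326. The 51 members that rose did so by 1.18-fold to 2.64-fold with a median of 1.67-fold, and the genotypes did not overlap for any of the 51. A fit of the 4 libraries of 30 min alone, which shares no library with the rule, called 44 members higher and 3 lower. Of the 7287 identifiers it called 230 higher (3.16%) and 3306 lower.

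The members' median log2 fold change at 30 min was 0.41, against -0.52 over the 7287 identifiers and 0.61 over all 27488 tested. The members' median thus lay 0.92 above that of the 7287. A scaling moves members and other identifiers alike, so this distance is nearly fixed under other scalings while the medians themselves move. With each 30 min library left out in turn it was 0.89 to 0.95. With TMM taken over the 7287 identifiers alone, their median was 0.04, and 82 members were called higher, against 20.8% of them. In that edgeR fit 0 members were called lower, against 17.7% of the 7287, and 0 were lower at an unadjusted p below 0.05. DESeq2 called 71 members higher and 2 lower, where it called 784 of the 7287 higher and 2982 lower. The calls of the 7 members that were lower under TMM thus depended on the scaling.

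On the CPM + 1 scale used for the other times, the members' median log2 ratio at 30 min was 0.68 (1.60-fold), against -0.23 over the 7287 identifiers. In CPM, with no model, both CKO 30 min libraries lay above both Control 30 min libraries for 79 members, against 17.4% of the 7287 identifiers. They lay below for 5 members, against 52.5%, and the genotypes overlapped for 16. With counts per ERCC spike-in count in place of CPM, a scaling chosen after seeing the data, they lay above for 36 members, against 2.81% of the 7287.

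**Figure D3:**
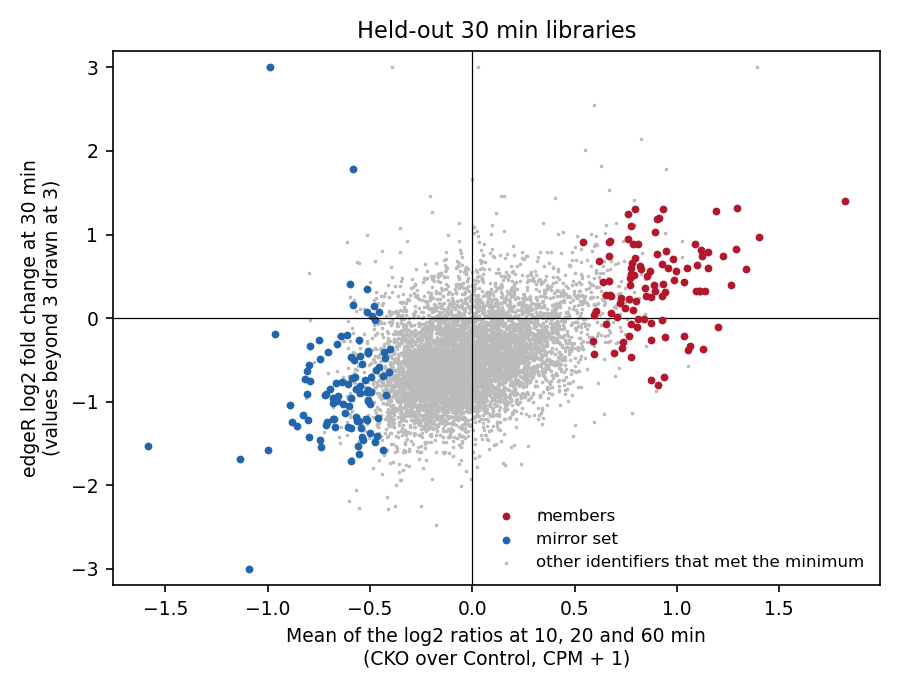
Held-out edgeR log2 fold change at 30 min, CKO over Control (y axis, values beyond 3 drawn at 3), against the mean log2 ratio at 10, 20 and 60 min (x axis). Points are the 100 members (red), the 100 identifiers with the most consistent falls (blue) and the other identifiers that met the minimum (grey). Most of the grey cloud lies below 0 on the y axis, with a median of -0.52 over all 7287, while the members have a median of 0.41.

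A larger difference by the rule went only loosely with a larger one at 30 min. Of the members ranked 1 to 25, 16 were called higher at 30 min, with a median log2 fold change of 0.59. The numbers were 13 and 0.39 for ranks 26 to 50, 10 and 0.32 for ranks 51 to 75, and 12 and 0.28 for ranks 76 to 100. Across the 100 members the rule's value and the 30 min value had a Pearson r of 0.28 and a Spearman rho of 0.20. Across the 7287 identifiers these were 0.30 and 0.32. Genes of 1 library share its depth and composition and are not independent replicates.

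The 5 largest fold changes at 30 min belonged to the members ranked 1, 5, 15, 79 and 4. The member ranked 5 had 108 and 127 CPM in CKO, against 41.2 and 36.7 CPM in Control, and rose by 1.31 (log2, SE 0.139, edgeR adjusted p = 4.49e-08). The member ranked 15 had 86.9 and 94.5 CPM in CKO, against 31.4 and 28.8 CPM in Control, also a rise of 1.31 (SE 0.162, edgeR adjusted p = 5.01e-07). On the CPM + 1 scale its log2 ratio was 1.56 at 30 min and smaller at the other times, at 1.06, 0.89 and 0.85. The member ranked 79 had 71.3 and 44.0 CPM in CKO, against 20.9 and 17.6 CPM in Control, a rise of 1.31 with a wider error (SE 0.307, edgeR adjusted p = 0.00177). The member ranked 4 had 85.0 and 126 CPM in CKO, against 38.7 and 32.6 CPM in Control (log2 1.28, SE 0.178, edgeR adjusted p = 3.14e-06). The CKO libraries of the members ranked 4 and 79 differed from each other by more than those of the other 3, and all lay above both Control libraries.

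The 5 smallest belonged to the members ranked 22, 16, 32, 98 and 85, and all of these were called lower under TMM. ENSMUSG00000024190.6, ranked 16, had 84.4 and 64.8 CPM in CKO at 30 min, against 112 and 93.5 CPM in Control. Its log2 fold change was -0.74 (SE 0.12, edgeR adjusted p = 2.53e-05). At 60 min it had 316 and 342 CPM in CKO, against 187 and 180 CPM in Control. Its CKO 30 min libraries were below all its other CKO libraries, which had 161 to 342 CPM.

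ENSMUSG00000031765.8, ranked 32, was among the most abundant members and had the same order. It had 1656 and 1755 CPM in CKO at 10 min, against 815 and 824 CPM in Control. At 20 min it had 1355 and 1314 CPM in CKO, against 791 and 814 CPM in Control, and at 60 min 1820 and 1222 CPM in CKO, against 740 and 761 CPM in Control. At 30 min it had 486 and 463 CPM in CKO, against 633 and 644 CPM in Control (log2 fold change -0.71, SE 0.104, edgeR adjusted p = 8.27e-06). The CKO libraries of 30 min were thus the only CKO libraries of this member below the Control libraries.

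The member ranked 22 was one of low abundance, with 8.67 and 9.59 CPM in CKO at 30 min, against 12.5 and 13.7 CPM in Control (log2 -0.81, SE 0.301, edgeR adjusted p = 0.0305). Its first CKO library of 10 min had 21.1 CPM and its second 9.97 CPM, against 10.4 and 6.79 CPM in Control. It is the only member whose genotypes overlapped at 10 min. The members ranked 98 and 85 had log2 fold changes at 30 min of -0.46 (SE 0.153, edgeR adjusted p = 0.0172) and -0.44 (SE 0.167, edgeR adjusted p = 0.0348), with overlap between the genotypes in CPM.

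**Figure D4:**
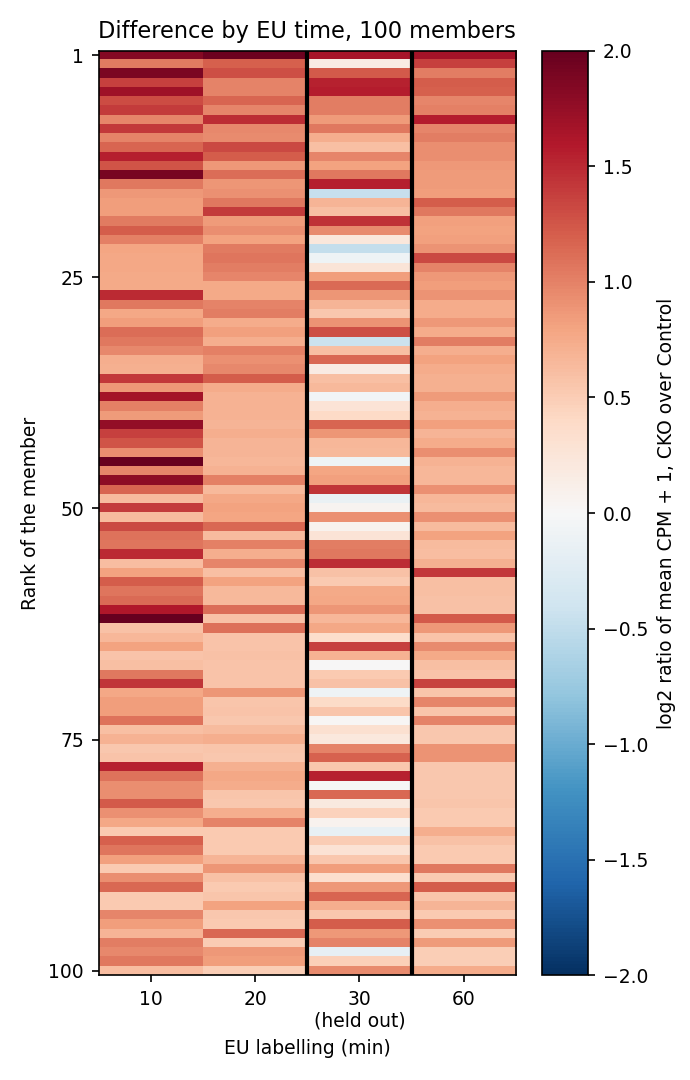
Log2 ratio of mean CPM + 1, CKO over Control (colour, red where CKO is higher), for the 100 members in order of rank (y axis) at each EU labelling time (x axis, min). Black lines frame the held-out 30 min column. The columns of 10, 20 and 60 min hold only positive ratios, as follows from the rule. The 30 min column holds 89 positive ones, where 30.7% of the 7287 identifiers had a positive ratio.

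The members also differed in how their share of the library moved with labelling time. In Control cells, 14 members gained over 1.5-fold from 10 to 60 min, 5 lost over 1.5-fold and 81 stayed within it. Of the 7287 identifiers, 11.6% gained and 5.34% lost. In CKO cells, 13 members gained, 31 lost and 56 stayed within 1.5-fold, where 15.5% of the 7287 gained and 12.4% lost. Given the Control changes, the CKO changes follow from the ratios at 10 and 60 min. The larger number of losses in CKO thus restates the larger differences at 10 min and is not a separate observation. Both rest on libraries that the rule used, so no test was made.

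The 14 members that gained share in Control had the smallest held-out differences. Of them, 2 were called higher and 3 lower at 30 min, with a median log2 fold change of 0.10. Of the 81 that stayed within 1.5-fold, 45 were called higher and 4 lower, with a median of 0.48, and of the 5 that lost share 4 were called higher, with a median of 0.57. The identifiers that met the minimum followed the same order. Among the 848 that gained, 1.06% were called higher and the median was -0.77, among the 6050 within 1.5-fold 4.10% and -0.49, and among the 389 that lost 7.46% and -0.35. Called lower were 75.7% of those that gained, 59.9% of those within 1.5-fold and 42.9% of those that lost. The distance between members and all identifiers of the same class was 0.87, 0.98 and 0.91. The spread of the members at 30 min thus ran along a pattern shared by the 7287 identifiers.

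Of the gaining members, those ranked 11 and 36 were called higher. The member ranked 11 had 89.5 and 104 CPM in CKO at 10 min, against 42.2 and 42.7 CPM in Control. At 60 min it had 196 and 200 CPM in CKO, against 97.0 and 109 CPM in Control. At 30 min it had 104.7 and 105.9 CPM in CKO, against 70.1 and 68.2 CPM in Control (log2 0.32, SE 0.114, edgeR adjusted p = 0.0235). The member ranked 23 gained the most in CKO. It had 33.4 and 49.5 CPM in CKO at 10 min, against 24.9 and 22.9 CPM in Control, and 152 and 156 CPM in CKO at 60 min, against 59.8 and 62.7 CPM in Control. At 30 min it had 34.3 and 36.4 CPM in CKO, against 37.8 and 37.7 CPM in Control (log2 -0.38, SE 0.161, edgeR adjusted p = 0.0553).

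Of the 3 most abundant members, the one ranked 32 was called lower at 30 min, as given above, and the other two had small differences. The member ranked 68 had 3284 and 3767 CPM in CKO at 10 min, against 1740 and 1670 CPM in Control, and 1570 and 1588 CPM in CKO at 30 min, against 1126 and 1064 CPM in Control. It rose at 30 min by 0.24 (log2, SE 0.072, edgeR adjusted p = 0.00878). The member ranked 71 had 2248 and 2806 CPM in CKO at 10 min, against 1397 and 1445 CPM in Control. At 30 min it had 1540 and 1547 CPM in CKO, against 1223 and 1157 CPM in Control, and it was not called (log2 0.09, SE 0.0795, edgeR adjusted p = 0.334). For both, the replicates of the genotypes were separate in CPM at every time.

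Replicates of the members agreed least in the CKO 30 min group and the 10 min groups. The median absolute log2 difference between replicates over the members was 0.25 in CKO at 30 min and 0.12 in Control at 30 min. It was 0.19 in CKO and 0.23 in Control at 10 min, 0.09 in CKO and 0.10 in Control at 20 min, and 0.15 in CKO and 0.09 in Control at 60 min. The widest gap at 60 min was that of the member ranked 73, with 358 and 151 CPM in CKO, against 129 and 125 CPM in Control. Its 30 min values of 100 and 126 CPM in CKO and 115 and 108 CPM in Control overlapped (log2 -0.26, SE 0.32, edgeR adjusted p = 0.519).

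Set against the ERCC spike-in, RNA added per the labels at 0.01 µl to every sample after capture, the members' counts were higher after longer labelling in Control, and in CKO except at 30 min. After 10 min there were 0.569 ± 0.108 member counts per ERCC count in CKO and 0.104 ± 0.00369 in Control (SD, n = 2 each). After 20 min there were 0.835 ± 0.0115 in CKO and 0.377 ± 0.00667 in Control, and after 60 min 2.08 ± 0.141 in CKO and 1.10 ± 0.00639 in Control. At 30 min the value was 0.703 ± 0.253 in CKO and 0.619 ± 0.0204 in Control (SD, n = 2 each), and there the genotypes overlapped. All mouse counts per ERCC count were also higher after longer labelling in Control. At 10 min they were 28.6 and 34.3 in CKO, against 11.6 and 12.3 in Control. At 30 min they were 81.6 and 47.4 in CKO, against 79.2 and 84.5 in Control. The CKO 30 min libraries thus differed from each other in all mouse counts per ERCC count too. Their members' shares of the mouse counts were 1.08% and 1.11%. At 60 min all mouse counts per ERCC count were 128 and 155 in CKO, against 133 and 131 in Control. The rise with labelling time was thus not particular to the members. With 2 libraries against 2 no exact test can pass the threshold, and none was made.

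For comparison, a mirror set was taken of the 100 identifiers with the most consistent falls, those with the smallest maximum of the 3 ratios. The falls are relative to the library total. In the edgeR fit of the 12 libraries 100 of the set were called lower under TMM, against 891 of the 7287. The set was chosen on these libraries, so that count follows from the choice. With ERCC scaling 1 of the set was called lower, against 1 of the 7287. There 41 of the set had a negative log2 fold change and its median was 0.03, against 0.58 over the 7287. The distance of the set from the median of the 7287 was -0.55 under either scaling. Its CPM ratios were smaller, the last of the set having -0.37 at its weakest time against 0.50 for the last member. At 30 min 78 of the mirror set were called lower and 2 higher (edgeR), where 60.8% of the 7287 identifiers were called lower. Its median log2 fold change was -0.90, a distance of -0.39 from the median of the 7287, against 0.92 for the members. The difference between the sets was not tested.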

How the data were processed

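Captured EU-labelled RNA was sequenced in 16 libraries. The authors deposited whole-number counts for each gene identifier, together with 92 ERCC species. Per the submitters' processing notes, the mm10 build and the tools HTSeq, HISAT2 2.1.0, Trimmomatic 0.38 and CASAVA were used. Neither the annotation release nor the strand and exon settings of the counting are given here, so identifiers that overlap, lie antisense or have near-identical copies have uncertain counts.

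From these counts, CPM used mouse totals only. The tests were edgeR 4.0.16 quasi-likelihood F-tests in R 4.3.3 (robust, TMM, filterByExpr on the groups, Benjamini-Hochberg over all identifiers tested, threshold 0.05). The 30 min effect came from 8 group means in all 16 libraries, and each SE is the size of the log2 fold change over the root of its F. TMM is relative, so changes are read against the median of other identifiers. Depth per library is given with the results.

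The members and gene lists were chosen with earlier results of these data known. The naming rule took the 25 highest-ranked members with a symbol, members in the lists, the 5 highest and 5 lowest at 30 min, the ranks next to the cut, and list genes. Without symbols it was reduced to ranks, and the other ranks named were chosen after their values were seen. Promoter letters, biotypes, lengths and neighbours were not analysed here. Alternatives were DESeq2 1.42.0, other scalings and filters, a replicate block, the 4 libraries of 30 min alone, each library left out, and other forms of the rule. Replicate numbers were not used to pair the libraries in the main fits. The correlation of deviations between same-numbered libraries of the genotypes was -0.01 to 0.02 over the 4 times. That value cannot show whether same-numbered libraries shared a culture or preparation.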

Additional observations from a re-analysis of the deposited data

Results flagged for a closer look

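For 4 members every CKO library lay above every Control library of its time at 10, 20 and 60 min and below both at 30 min. The part of this pattern at 10, 20 and 60 min was fixed by the choice of members, and the difference between times was not tested. Their edgeR log2 fold changes at 30 min were -0.745 for the member ranked 16, -0.377 for the member ranked 23, -0.712 for the member ranked 32 and -0.422 for the member ranked 49. Of these 4, 3 passed the threshold (edgeR, Benjamini-Hochberg), all but the member ranked 23. In the same fit 60.8% of the 7287 identifiers were called lower at 30 min. Both CKO libraries lay below both Control libraries at 30 min for 52.5% of the 7287. Calls of members as lower depended on the scaling, with 7 in the main fit and 0 with TMM taken over the 7287 alone.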

How the results depend on the processing

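Counts of calls moved with scaling, for members and other identifiers alike. Members called higher numbered 51, against 23 with ERCC scaling, 82 with the stricter filter (the 7287 identifiers alone), and 35 to 52 when each 30 min library was left out. Of the 7287 identifiers 286 were called higher, against 93, 1514 and 161 to 413 under these settings. Members called lower numbered 7, against 2 with DESeq2's size factors in edgeR, library totals or DESeq2, 3 with ERCC scaling or the 4 libraries of 30 min alone, 0 with the stricter filter, and 2 to 7 with each library left out (2 without each Control 30 min library). Of the 7287 identifiers 4433 were called lower, against 2836 with DESeq2's size factors in edgeR, 2814 with library totals and 2982 with DESeq2. They numbered 3355 with ERCC scaling, 3306 with the 4 libraries of 30 min alone and 1288 with the stricter filter. The members' median log2 fold change of 0.41 was 0.68 with those size factors or DESeq2 and 0.69 with library totals. It was 0.96 with the stricter filter, 0.32 with ERCC scaling and 0.41 to 0.47 with each library left out. All identifiers called at 30 min numbered 13339, against 2802 with the stricter filter, which tests fewer, and 6305 to 11860 with each library left out (6617 without Control 30 min replicate 1, 6305 without replicate 2). Over 10, 20 and 60 min 2545 were called (1324 higher and 1221 lower), against 5852 with ERCC scaling (5829 higher and 23 lower, with 3683 of the 7287 higher) and 1860 to 2235 with each library left out. Members separate in CPM at 30 min, with CKO above, numbered 79, against 66 with TMM-scaled CPM and 36 per ERCC count. Of the 7287 identifiers 1266 were separate in this way in CPM, against 564 and 205. Both alternatives were chosen after seeing the data. A minimum of 50 CPM kept 50 of the 100 members, and each library left out kept 85 to 95. The replicate number as a block gave 11984 calls at 30 min and 2292 calls over 10, 20 and 60 min. At 30 min it called 52 members higher and 7 lower, against 302 and 4527 of the 7287 identifiers. In the fits without a library its group has 1 library, assumed to vary like the others. Where not stated, the cause was not tested.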
